A study of Mus musculus with 6 samples.

Results

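The guanylate-binding proteins (GBPs) and immunity-related GTPases (IRGs) were represented by 10 genes, 4 GBPs (Gbp2, Gbp3, Gbp5 and Gbp7) and 6 IRGs (Irgm1, Irgm2, Igtp, Iigp1, Ifi47 and Gm4951), out of 54532 genes in the count table. The 10 rows were taken by gene name, and the names had been chosen with their knockout and wild type values in these libraries known, so that contrast is given for them as a description and not as a test. RNA sequencing of polyadenylated RNA was carried out on abdominal aorta, taken on day 7 of an induced aneurysm, a widening of the artery. The samples were 3 libraries from Olfr2 knockout (KO) mice and 3 from wild type (WT) mice, and Olfr2 encodes an odorant receptor, a G protein-coupled receptor. Both groups had an induced aneurysm, so no uninjured aorta stands beside them. The induction method, the construction of the Olfr2 allele, the strain, age and sex, and the number of animals behind a library remain not given in the sources used here, so p-values measure only the spread between libraries, which may be partly technical.

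GBPs are large dynamin-like GTPases, and IRGs are smaller GTPases of the same kind of defence. Interferon gamma, made by T cells and natural killer (NK) cells, induces both families through transcription factors such as IRF1 in macrophages, endothelial cells and many other cells. The proteins gather on vacuoles that hold parasites or bacteria, damage them and pass bacterial lipopolysaccharide to the inflammasome. Among the IRGs, Irgm1, Irgm2 and Igtp (also Irgm3) are regulators that sit on host membranes and keep the effector IRGs inactive there, whereas Iigp1 (Irga6) and Ifi47 (Irgd) are counted with the effectors.

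The GBP members lie in one cluster of the mouse genome (GRCm38) on the plus strand of chromosome 3, from 142493978 to 142638008, in the order Gbp5, Gbp7, Gbp3 and Gbp2, with Gbp2b between the last pair. Irgm1 (48861968 to 48871683, minus strand) and Ifi47 (49076587 to 49096974, plus strand) are on chromosome 11, and Igtp (58199556 to 58207591, plus strand) overlaps the gene span of Irgm2 (58199618 to 58222782, plus strand) further along the same chromosome. All 10 members are annotated as protein-coding.

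The promoters were examined because most members had similar profiles over the libraries, Gbp2, Gbp7 and Gm4951 less so. The members were chosen with these values known, so that likeness comes in part from the choice. RefSeq promoter windows (GRCm38.p6, 250 bases before to 50 after an annotated start) were found for 8 of the 10 members, with 9 windows because Gbp3 has a pair of starts. Windows were matched by gene name, and none was found for Iigp1 or Gm4951 under these names, so their promoters were not examined. Both strands were searched for GAAA, any 2 bases and GAAA again, the core of the interferon-stimulated response element (ISRE) that IRF factors bind, and for TTCNNNGAA, the core of the gamma-activated site (GAS), an element of promoters that answer to interferon gamma. The 4 sequences below show the arrangement found in Igtp and Irgm2, the denser one in Gbp7, and Ifi47, which held no match. Each is given 5′ to 3′ on the strand of its gene and ends at the base before the start. Starts are those of RefSeq and need not be the first base of the gene span given above. That of Irgm2 lies inside its span, past the end of Igtp, so the overlap with Igtp rests on the longer span. Capitals mark the motif matches.
Igtp, chr11:58199306-58199555, plus strand: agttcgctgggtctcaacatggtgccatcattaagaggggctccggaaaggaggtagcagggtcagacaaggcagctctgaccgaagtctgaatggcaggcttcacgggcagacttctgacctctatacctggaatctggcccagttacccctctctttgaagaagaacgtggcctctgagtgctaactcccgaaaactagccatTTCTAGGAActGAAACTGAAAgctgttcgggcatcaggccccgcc
Irgm2, chr11:58214727-58214976, plus strand: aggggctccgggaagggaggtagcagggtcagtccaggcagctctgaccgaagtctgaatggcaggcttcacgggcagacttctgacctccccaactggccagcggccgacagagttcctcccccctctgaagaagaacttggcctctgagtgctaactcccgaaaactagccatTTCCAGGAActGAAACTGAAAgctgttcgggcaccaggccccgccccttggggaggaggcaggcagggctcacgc
Gbp7, chr3:142530086-142530335, plus strand: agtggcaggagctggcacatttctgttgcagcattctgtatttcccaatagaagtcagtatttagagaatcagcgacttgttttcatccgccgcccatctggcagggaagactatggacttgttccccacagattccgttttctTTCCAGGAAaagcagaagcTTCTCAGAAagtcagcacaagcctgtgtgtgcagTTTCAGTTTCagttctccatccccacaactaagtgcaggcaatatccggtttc
Ifi47, chr11:49076337-49076586, plus strand: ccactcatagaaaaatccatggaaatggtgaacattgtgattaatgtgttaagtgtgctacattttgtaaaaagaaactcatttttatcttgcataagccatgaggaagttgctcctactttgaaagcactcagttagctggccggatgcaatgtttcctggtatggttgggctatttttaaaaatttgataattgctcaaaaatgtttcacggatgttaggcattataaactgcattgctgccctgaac

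An ISRE core was present in 7 of the 9 member windows, against 3.44% of 32851 promoter windows of the same length. A GAS core was present in 4 of the 9, against 8.3% of all windows, and the same 4 windows, those of Gbp5, Gbp7, Igtp and Irgm2, held both, against 0.454% of all windows. In Igtp the GAS core lay 45 bases before the start and the ISRE core 34, and in Irgm2 they lay 75 and 64 bases before it, so that 2 bases separated the motifs in both. That arrangement, TTCNNNGAA, any 2 bases and the ISRE core, was searched for after it had been seen, and it occurred in 5 of the 32851 windows, those of Igtp, Irgm2, Tgtp1, Tgtp2 and Gm12185, all of the IRG family. The upstream sequences of Igtp and Irgm2 were themselves alike, with 194 identical bases over 220 aligned columns (88.2%), so they are not independent examples. Those of Tgtp1, Tgtp2 and Gm12185 were not aligned. Tgtp1 and Tgtp2 share most of their transcript sequence, so the 5 windows may not be independent either. Gbp3 and Irgm1 each held a pair of overlapping ISRE cores, starting 45 and 39 bases before the start in Gbp3 and 30 and 24 in Irgm1. In Gbp2 the ISRE core lay 59 bases before the start, and Ifi47 and the second Gbp3 window held neither motif. A match describes letters in the window and does not show that a factor bound there.

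**Figure D1:**
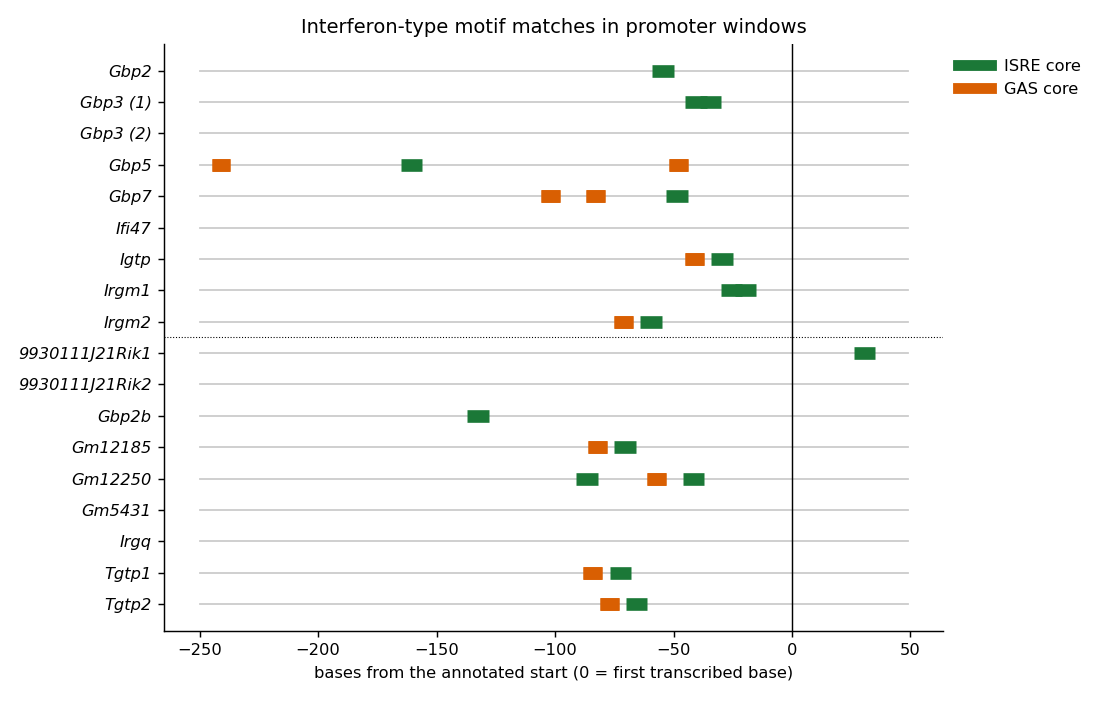
Matches to the ISRE core (green) and the GAS core (orange) in RefSeq promoter windows of members (above the dotted line) and of other GBP and IRG genes (below it), by distance in bases from the annotated start. Windows were found for 9 of the other genes, with Gbp2b the only GBP among them. Igtp and Irgm2 share the arrangement of GAS then ISRE with Gm12185, Tgtp1 and Tgtp2, while Ifi47 has no match; Gbp3 has windows 1 and 2.

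Library totals lay between 17248918 and 21872027 counts. Olfr2 itself was counted 0 times in each of the 6 libraries, which allows up to 3 counts per library, 0.14 to 0.172 CPM (counts scaled to library size with TMM factors) in KO libraries and 0.163 to 0.182 CPM in WT libraries, so it does not check the genotype labels. Such limits cover counting error only. Smooth muscle markers, which define the aortic wall, summed to 1140 CPM or more in every library. Skeletal muscle markers summed to 1190 CPM in KO replicate 3, against 10.1 to 10.9 CPM in the other KO libraries and 9.09 to 23.2 CPM in WT. Over all genes the quasi-likelihood test of edgeR, adjusted by the Benjamini-Hochberg method, called 2 of 16237, Ighg3 and Myom1, both higher in KO and neither a GTPase.

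All 10 members had a lower mean in KO. Their log2 fold changes, KO over WT, ran from -0.75 in Gm4951 to -0.19 in Gbp2 with a median of -0.49, beside a median of 0.006 over all tested genes, and 48.8% of all tested genes had a lower mean in KO. Summed over the 10, the level was 2086 ± 473 CPM across KO libraries and 2872 ± 94.4 CPM across WT libraries (SD, n = 3 each). In bulk tissue, fewer cells of a type and less RNA per cell cannot be told apart. All 10 members passed the filter on low counts, and 0 passed an adjusted p of 0.05 in the same test over all genes, where 0.0123% of tested genes did. At an unadjusted p under 0.05 there were 7 of the 10, all lower, where 6.08% of tested genes were lower at that level, and DESeq2 with adjustment called 3, Gm4951, Ifi47 and Irgm1, where it called 3.03% of genes in all and 1.9% lower. KO and WT libraries did not overlap, with KO lower, for 5 of the 10, against 9.01% of all tested genes, and for 0 of the 10 with KO higher, against 7.83%. These counts describe genes picked from the same contrast, and nothing is read from them.

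Among the GBPs, Gbp2, which in mice coats the vacuole of Toxoplasma and of bacteria, was the most abundant member and the least different between genotypes. It stood at 407, 404 and 631 CPM in KO replicates 1 to 3, against 614, 476 and 558 CPM in WT replicates 1 to 3. The KO and WT libraries overlapped, since KO replicate 3 was the highest of the 6. Its log2 fold change was -0.19 (SE 0.20), and it lay between -0.44 (without KO replicate 3) and -0.08 (without KO replicate 2) with 1 library left out.

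Gbp3 stood at 135, 135 and 179 CPM in KO and at 233, 204 and 193 CPM in WT, with no overlap and a log2 fold change of -0.49 (SE 0.14). Gbp5, linked in mice to assembly of the NLRP3 inflammasome, stood at 122, 128 and 186 CPM in KO and at 228, 170 and 214 CPM in WT, a log2 fold change of -0.49 (SE 0.19). Here KO replicate 3 lay above WT replicate 2, so the groups overlapped. Gbp7, reported in mice to promote the oxidative burst on phagosomes, stood at 89.05, 105.0 and 121 CPM in KO and at 155, 126 and 117 CPM in WT, a log2 fold change of -0.34 (SE 0.15). For Gbp7 too KO replicate 3 lay inside the WT range, above WT replicate 3, and without WT replicate 1 the log2 fold change was -0.22 (SE 0.15).

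The regulatory IRGs had a median log2 fold change of -0.54, beside -0.41 in the GBPs. Irgm1, needed in mice for defence against mycobacteria and for restraining IRG effectors, stood at 251, 206 and 314 CPM in KO and at 391, 445 and 348 CPM in WT, with no overlap and a log2 fold change of -0.62 (SE 0.17). Irgm2, a regulator found at the Golgi, stood at 150.3, 175.0 and 242 CPM in KO and at 271, 264 and 291.7 CPM in WT, a log2 fold change of -0.54 (SE 0.17). KO replicate 3 was again the highest KO library but lay below every WT library for both genes. Igtp, needed for resistance to Toxoplasma, stood at 161, 153 and 263 CPM in KO and at 241, 287 and 257 CPM in WT, a log2 fold change of -0.44 (SE 0.21). For Igtp the groups overlapped, because KO replicate 3 exceeded WT replicates 1 and 3. Without KO replicate 3 the log2 fold change of Igtp was -0.74 (SE 0.14).

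The remaining IRGs included the members with the lowest fold changes. Gm4951 (60212080 to 60247820) and Iigp1 (60376027 to 60392634) are both on the plus strand of chromosome 18, and RefSeq lists Ifgga2 and Ifgga1 as their other names. Iigp1, an effector that attacks the parasite vacuole, stood at 311, 246 and 406 CPM in KO and at 465, 399.6 and 462 CPM in WT, a log2 fold change of -0.46 (SE 0.18), with KO replicate 3 just above WT replicate 2. Without KO replicate 2 it was -0.30 (SE 0.17). Ifi47 stood at 198, 181 and 251 CPM in KO and at 317, 389 and 323 CPM in WT, a log2 fold change of -0.71 (SE 0.16), and the groups did not overlap. Gm4951 stood at 38.3, 33.7 and 36.1 CPM in KO and at 67.9, 55.5 and 58.1 CPM in WT, a log2 fold change of -0.75 (SE 0.12). Gm4951 was the only member for which KO replicate 3 was not the highest KO library, and the coefficient of variation of its KO libraries was 6.33%. In the other 9 members that coefficient was 15.1 to 32% in KO, against 5.28 to 14.9% in WT over all 10. Iigp1, on the same chromosome, had 25% in KO.

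**Figure D2:**
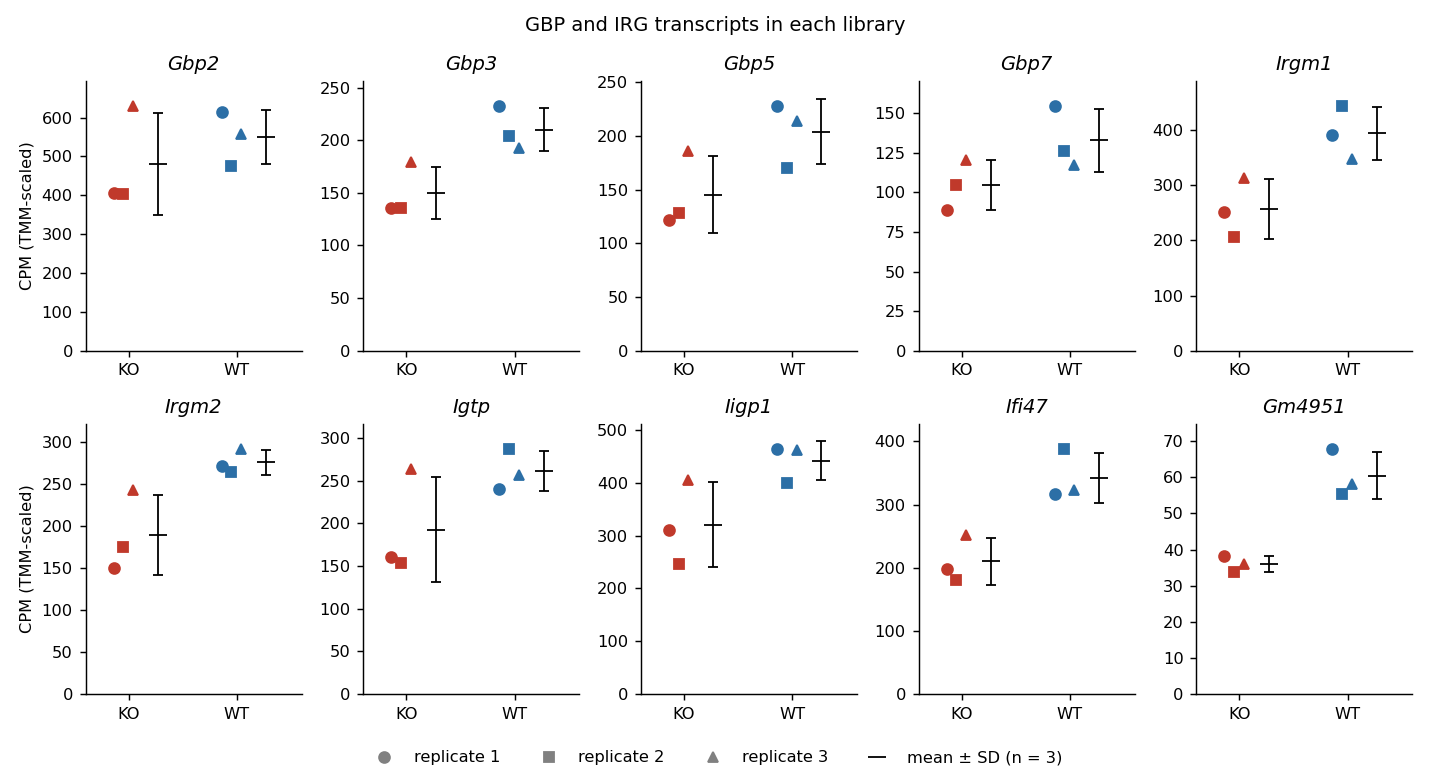
TMM-scaled CPM of the 10 members (y axis from 0) in the KO and WT libraries, with 1 symbol per replicate and the mean ± SD (n = 3) beside them. KO replicate 3 is the highest KO library in 9 of 10 members, and the KO and WT points do not overlap for Gbp3, Irgm1, Irgm2, Ifi47 and Gm4951.

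The lowest of the 6 was KO replicate 2 for 7 members and KO replicate 1 for 3. The highest was WT replicate 1 for 5 members, WT replicate 2 for 3, WT replicate 3 for 1 (Irgm2) and KO replicate 3 for 1 (Gbp2). Centred on each gene's own mean, the median log2 CPM of the members was -0.39, -0.44 and 0.07 in the KO libraries, replicates 1 to 3, against 0.32, 0.22 and 0.25 in the WT libraries. KO replicate 3 thus lay between the other KO libraries and the WT libraries. It was also the library with skeletal muscle transcripts, whose part in the members' level was not tested. Without it the median log2 fold change of the members was -0.72, against -0.49 with all libraries. The IRGs made up 57.8 ± 1.65% of the members' counts in KO and 61.9 ± 3.29% in WT (SD, n = 3 each), ranges that overlapped.

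Per length of exon, Gbp2 stood well above the rest and Gbp5, Gbp7 and Gm4951 below. In CPM per kilobase of exon (RPKM), Gbp2 averaged 191 ± 51.9 in KO and 218 ± 27.6 in WT (SD, n = 3 each), a level above that of 98.7% of tested genes. Igtp at 95.2 ± 30.5 in KO and 129 ± 11.7 in WT and Ifi47 at 84.9 ± 14.9 in KO and 139 ± 16.2 in WT came next, and they traded places between libraries. Iigp1, Irgm2, Irgm1 and Gbp3 followed at means of 44.3 to 55.1 RPKM in KO and 64.3 to 75.9 RPKM in WT, and none of these neighbours was separated from the next over the 6 libraries. Gbp5 at 21.9 ± 5.37 in KO and 30.7 ± 4.57 in WT, Gbp7 at 18.7 ± 2.82 in KO and 23.7 ± 3.50 in WT, and Gm4951 at 13.6 ± 0.862 in KO and 22.9 ± 2.48 in WT closed the order. The ranges over the 6 libraries did not overlap at 2 steps, from Gbp2 to Igtp and from Gbp3 to Gbp5. Compared within each library, Ifi47 also lay above Iigp1, and Gbp5 above Gbp7, in all 6.

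**Figure D3:**
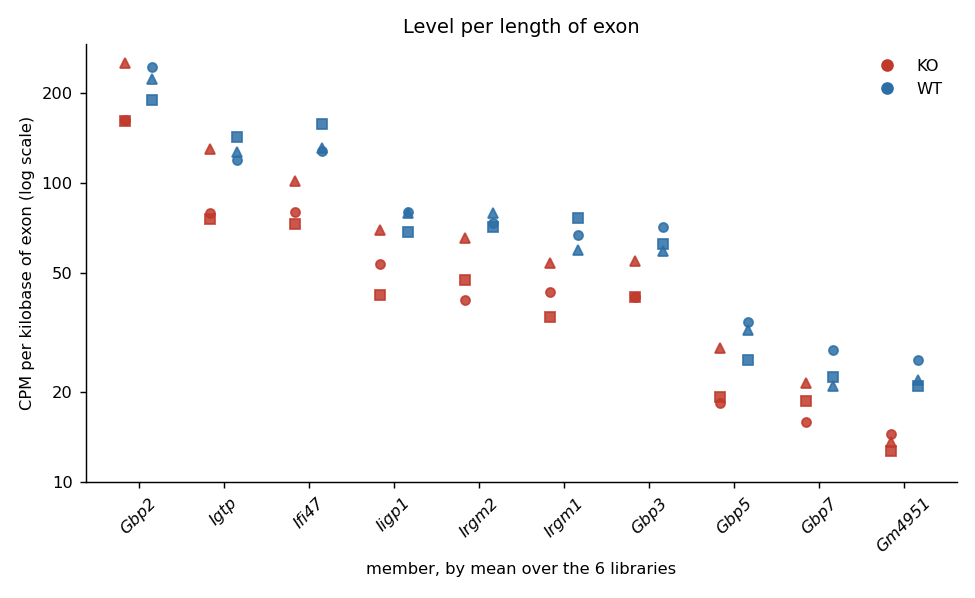
CPM per kilobase of exon (log axis) for each member, ordered by the mean over the 6 libraries, with KO to the left of WT and circle, square and triangle for replicates 1, 2 and 3. Gbp2 lies at 160 to 251, a middle group of 4 genes from Iigp1 to Gbp3 at 35.5 to 79.9, and Gm4951 at 12.8 to 25.7.

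Counts of related genes can be split or lost where sequence is shared, and the shared part was small in the members. Of the 50-base stretches of each member's transcripts, 0.379% in Irgm1 to 12.7% in Gbp7 also occurred in transcripts of another gene. For Gbp7 the partner was mostly Gm43802, which overlaps 11.3% of its exon bases on the same strand. Igtp (11.8%) and Irgm2 (6.79%) shared stretches with each other, so their counts are somewhat uncertain. Exons of Ifi47 overlap Gm12188 and Olfr56 over 8.77% of their bases, on both strands, and the strand setting of the counts remains not given in the sources used here.

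The rest of both families was compared across the same libraries, with p-values adjusted over all tested genes. This and the later lists were chosen with earlier results of these data known, so their counts are descriptions. Over all tested genes, 6.08% were lower at an unadjusted p under 0.05 in edgeR, and DESeq2 called 1.9% of its genes lower. Of 7 other GBPs tested, 6 had a lower mean in KO, the median log2 fold change was -0.42, and edgeR called 0, with 3 at an unadjusted p under 0.05, all lower, and 0 by DESeq2. Gbp4, on chromosome 5, stood at 120 ± 24.2 CPM across KO libraries and 161 ± 32.8 CPM across WT libraries (log2 fold change -0.42, SE 0.19) and Gbp9 at 101 ± 19.0 CPM across KO libraries and 143 ± 34.8 CPM across WT libraries (-0.50, SE 0.20; SD, n = 3 each). The other genes of that chromosome 5 cluster were Gbp6 (-0.46, SE 0.18), Gbp8 (-0.26, SE 0.17), Gbp10 (0.00, SE 0.30) and Gbp11 (0.42, SE 0.34). Gbp10 and Gbp11, like Gbp2b on chromosome 3 (-0.85, SE 0.42), had under 10 CPM in every library. Of its 50-base stretches, Gbp10 shares 84.1% and Gbp6 70.7% with other transcripts, so both values are uncertain.

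Of 9 other IRGs tested, 8 had a lower mean in KO and the median log2 fold change was -0.61. EdgeR called 0, with 5 at an unadjusted p under 0.05, all lower, and DESeq2 called 4, all lower (Gm12185, Gm12250, Gm5431 and Tgtp2). Without WT replicate 3 edgeR called 2, Gm12185 and Gm5431, both lower. Gm12250, which RefSeq also names Irgb10, an effector that lyses bacterial membranes in mice, stood at 57.5, 52.6 and 80.3 CPM in KO and at 111, 93.9 and 100 CPM in WT (log2 fold change -0.68, SE 0.16; adjusted p = 0.163, edgeR). Its groups did not overlap. GENCODE lists Gm12250 as a processed pseudogene, and Gbp11 as a polymorphic pseudogene. Gm5431 stood at 22.5, 28.9 and 36.4 CPM in KO and at 68.7, 62.9 and 48.4 CPM in WT, the lowest fold change of the family at -1.04 (SE 0.19; adjusted p = 0.104, edgeR), though 37.3% of its 50-base stretches are shared. Gm12185 showed a log2 fold change of -0.86 (SE 0.18), Tgtp2 of -0.69 (SE 0.20) and Tgtp1 of -0.61 (SE 0.22), and the last pair share most of their stretches with each other, 85.8% of those of Tgtp2 and 79.4% of those of Tgtp1, so how their reads divide between them is uncertain. The copies 9930111J21Rik1 (-0.40, SE 0.43) and 9930111J21Rik2 (-0.21, SE 0.36) and the weakly counted F830016B08Rik (-0.14, SE 0.31) had errors larger than their differences. Irgq, a divergent relative that interferon is not known to induce, stood at 31.6 ± 3.27 CPM across KO libraries and 30.0 ± 4.34 CPM across WT libraries (0.08, SE 0.14). Irgc1 had 0 to 3 counts in KO and 1 to 6 counts in WT and was not tested.

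**Figure D4:**
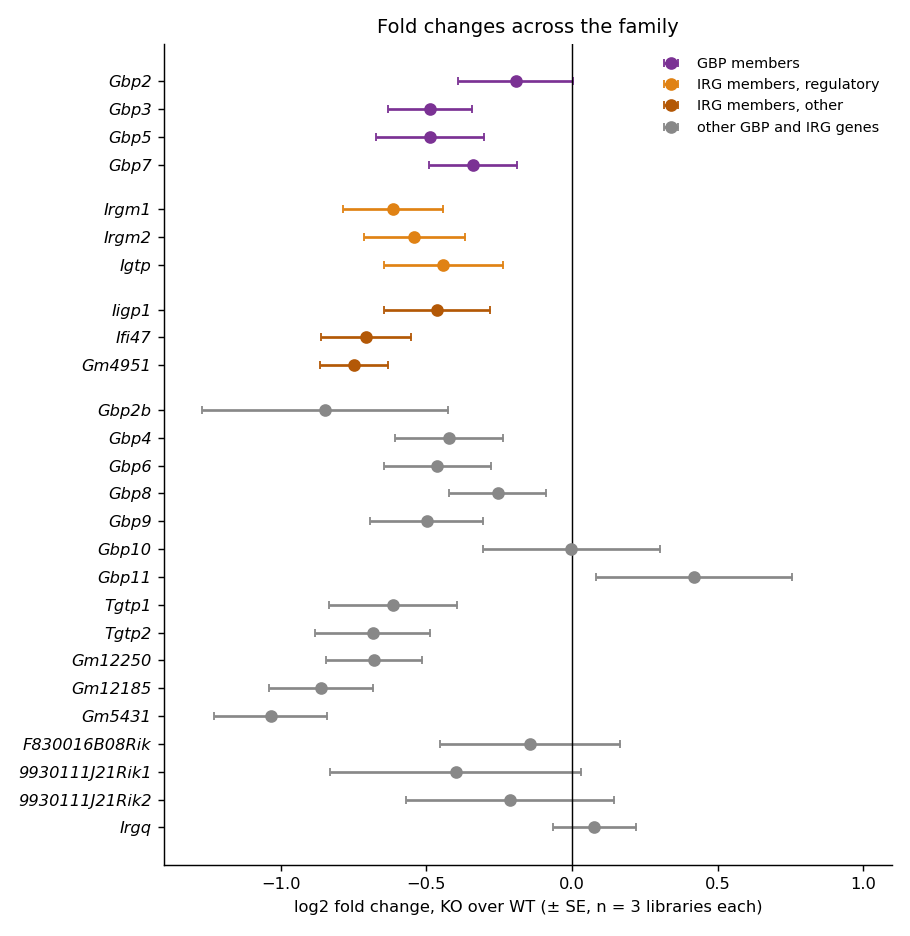
Log2 fold change, KO over WT, with its standard error (n = 3 libraries each) for the 10 members and for 16 other GBP and IRG genes tested. Every member lies left of 0, from -0.75 to -0.19, and of the other genes Gbp11 (0.42) and Irgq (0.08) lie right of it.

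Other large interferon-induced GTPases had lower means as well. All 5 tested had a lower mean in KO, with a median log2 fold change of -0.70, while edgeR called 0, with 4 at an unadjusted p under 0.05, and DESeq2 called 3 lower, Gm4070, Mx1 and Mx2. Without WT replicate 3 edgeR called 2, Mx1 and Mx2. GENCODE lists Mx2 as a polymorphic pseudogene. Nearly all 50-base stretches of Gm4070 (97.8%) and Gvin1 (99.2%) occur in other transcripts, so their counts are uncertain.

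The interferon pathway was followed from ligand to targets, none of which belongs to the 10. Ifng, the gene of interferon gamma, had 26, 23 and 42 counts in KO and 48, 54 and 34 counts in WT, which is 1.54 ± 0.393 CPM across KO libraries and 2.61 ± 0.659 CPM across WT libraries (log2 fold change -0.75, SE 0.33, adjusted p = 0.436, edgeR). At so few reads the KO and WT libraries overlapped. Of the 5 ligands and inducing cytokines tested, edgeR called 0, with 2 lower at an unadjusted p under 0.05, and DESeq2 called 1, Il18, lower, as did edgeR without WT replicate 3. Il27 stood at 4.75 ± 0.200 CPM across KO libraries and 6.74 ± 1.54 CPM across WT libraries (SD, n = 3 each). Ifnb1, the gene of interferon beta, had 0 counts in each KO library and 2, 2 and 5 counts in WT, whereas Ifna4, of the interferon alpha genes, had 10, 2 and 0 counts in KO and 0 counts in each WT library. Neither was tested.

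Receptors and kinases had a median log2 fold change nearer to 0 than the members. Of 7 tested, edgeR called 0, with 2 lower at an unadjusted p under 0.05, and DESeq2 called 0, with a list median of -0.17. Ifngr1, the ligand-binding chain of the interferon gamma receptor, stood at 328 ± 16.6 CPM across KO libraries and 392.1 ± 17 CPM across WT libraries (log2 fold change -0.26, SE 0.11), while its partner chain Ifngr2 stood at 179 ± 16.6 CPM across KO libraries and 179 ± 20.7 CPM across WT libraries (0.00, SE 0.13; SD, n = 3 each). Among the kinases, Tyk2 (-0.38, SE 0.11) was, with Ifngr1, one of the 2 at an unadjusted p under 0.05, and its KO libraries all lay below its WT libraries. Jak1 (-0.07, SE 0.12) and Jak2 (-0.27, SE 0.13) overlapped between groups.

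Transcription factors of the pathway had a median near that of the members. All 11 tested had a lower mean in KO, with a median log2 fold change of -0.53, edgeR called 0, with 8 lower at an unadjusted p under 0.05, and DESeq2 called 4 lower, Irf2 and Nlrc5 among them. Irf1 stood at 192, 219 and 288 CPM in KO and at 291.8, 256 and 305 CPM in WT, with overlap (-0.29, SE 0.16, adjusted p = 0.565, edgeR). Nlrc5, the activator of MHC class I genes, showed a log2 fold change of -0.53 (SE 0.15), Irf8 of -0.42 (SE 0.15) and Ciita, the activator of MHC class II genes, of -0.40 (SE 0.16). Of 7 inhibitors 5 had a lower mean in KO, the median log2 fold change was -0.09, and edgeR called 0, with 2 lower at an unadjusted p under 0.05, Socs1 (-0.62, SE 0.19) and Usp18 (-1.10, SE 0.22), and DESeq2 called Usp18, as did edgeR without WT replicate 3.

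Targets of interferon gamma other than GTPases had a lower mean in KO in 19 of 19, with a median log2 fold change of -0.44. EdgeR called 0, with 12 lower at an unadjusted p under 0.05, and DESeq2 called 7, all lower. Tap1, which feeds peptides to MHC class I, stood at 264, 267 and 323 CPM in KO and at 476, 532 and 475 CPM in WT (-0.80, SE 0.13, adjusted p = 0.102, edgeR). The immunoproteasome subunit gene Psmb9 showed a log2 fold change of -0.52 (SE 0.14). Cxcl10 (-0.85, SE 0.22) did not overlap between groups, whereas Cxcl9, the chemokine most closely tied to interferon gamma, stood at 192, 211 and 346 CPM in KO and at 265, 261 and 318 CPM in WT (-0.17, SE 0.22), with KO replicate 3 the highest of the 6 as it was for Gbp2. Ido1 had 2 to 5 counts in KO and 7 to 22 counts in WT and was not tested.

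Partners of the GTPases in pathogen defence had a median near 0. Of 19 tested, 12 had a lower mean in KO, the median log2 fold change was -0.04, edgeR called 0, with 2 lower at an unadjusted p under 0.05, and DESeq2 called 1 lower, Trim21. Casp4, the caspase that senses lipopolysaccharide released by GBPs, showed a log2 fold change of -0.18 (SE 0.14), and the DNA sensor Aim2 of -0.37 (SE 0.18). The autophagy genes Atg5 (0.05, SE 0.11) and Gabarapl2 (-0.04, SE 0.12), which in mice guide the GTPases to vacuoles, stood within their errors of 0.

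**Figure D5:**
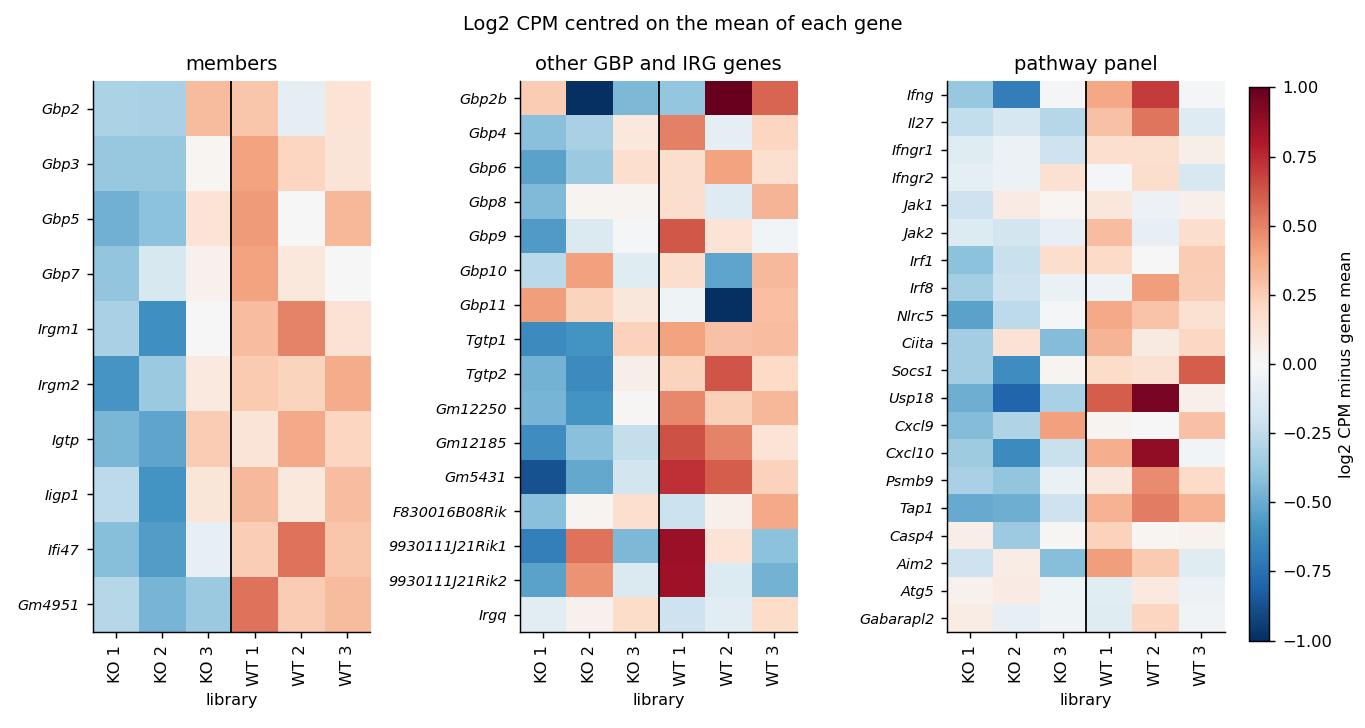
Log2 CPM in each library minus the mean of that gene over the 6 libraries (colour, red higher and blue lower) for the members, for other GBP and IRG genes and for the pathway panel, with KO libraries left of the line and WT libraries right of it; values beyond -1 and 1 take the end colours. KO replicates 1 and 2 are blue for all 10 members, KO replicate 3 lies between -0.37 and 0.32, and Atg5 and Gabarapl2 show little colour.

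Genes outside the members were ranked by how closely their centred log2 CPM followed the members' median profile over the 6 libraries, measured as a root mean square distance. The nearest 6 were Parp10 (0.050), Arl5c (0.058), Bmp7 (0.060), Dmrta1 (0.066), Aif1l (0.069) and Col9a3 (0.076), where the members themselves lay at 0.067 (Gbp3) to 0.209 (Gm4951) and the median tested gene at 0.373. The profile is the median of the members, so their own distances are small in part by construction. The nearest 1% of all tested genes lay within 0.161, and Gbp2 (0.176), Gbp7 (0.163) and Gm4951 lay beyond that. Parp10 stood at 82.6, 83.6 and 108 CPM in KO and at 141, 132 and 132 CPM in WT, and Arl5c at 26.6, 27.8 and 35.7 CPM in KO and at 43.0, 38.5 and 40.9 CPM in WT. The other 4 had under 4 CPM in every library, where counting error is large.

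Cell type markers were lower in KO, as the members were, in some lists and not in others, and their part in the members' difference was not tested. All 12 T cell markers had a lower mean in KO, summing to 204 to 257 CPM across KO libraries and 333 to 412 CPM across WT libraries, and all 10 NK cell markers did, at 121 to 187 CPM across KO libraries and 231 to 348 CPM across WT libraries. EdgeR called 0 in both lists, with 11 T cell and 8 NK cell markers lower at an unadjusted p under 0.05, where 6.08% of all tested genes were. DESeq2 called 7 T cell and 5 NK cell markers lower, where it called 1.9% of its genes lower. The 8 dendritic cell markers summed to 255 to 266 CPM across KO libraries and 346 to 354 CPM across WT libraries, with 0 called by edgeR and 2 called lower by DESeq2. In KO replicates 1 to 3 the sums were 204, 257 and 225 CPM for T cell markers. They were 121, 128 and 187 CPM for NK cell markers and 266, 262 and 255 CPM for dendritic cell markers. Of the T cell, NK cell and dendritic cell lists, KO replicate 3 was the highest KO library, as for most members, in NK cell markers alone. KO replicate 3 was also the highest KO library in macrophage (5640 CPM), endothelial (940 CPM), fibroblast (34300 CPM) and B cell markers (670 CPM). It was not the highest in monocyte, neutrophil, smooth muscle or white adipocyte markers. Macrophage markers overlapped, at 4460 to 5640 CPM across KO libraries and 4490 to 6920 CPM across WT libraries, and so did endothelial markers, at 759 to 940 CPM across KO libraries and 689 to 986 CPM across WT libraries, fibroblast markers, at 26500 to 34300 CPM across KO libraries and 31400 to 40500 CPM across WT libraries, and monocyte, B cell and neutrophil markers. Among these overlapping lists edgeR called 0 and DESeq2 called 1, a monocyte marker that was lower. Smooth muscle markers summed to higher values, at 1840 to 2780 CPM across KO libraries and 1140 to 1590 CPM across WT libraries, with 0 called by edgeR and 6 called higher by DESeq2. White adipocyte markers summed to 1700 to 2710 CPM in KO and to 443, 456 and 1760 CPM in WT replicates 1 to 3, with 0 called by edgeR and 2 called higher by DESeq2. No marker of these lists was at 0 in all libraries. With the adipocyte score as a covariate the members' median log2 fold change was -0.39, and the values of Gbp7 (-0.02, SE 0.20), Gbp2 (-0.05, SE 0.30), Gbp3 (-0.26, SE 0.21), Irgm1 (-0.39, SE 0.26) and Igtp (-0.29, SE 0.31) moved by over 1.5 times, while Gm4951 (-0.68, SE 0.19) and Ifi47 (-0.58, SE 0.24) moved less. All 12 adipocyte markers had a higher mean in KO, so the score largely follows genotype and this fit cannot cleanly separate them.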

How the data were processed

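Total RNA from abdominal aorta was selected on poly-T beads and sequenced, per the labels' protocols. The authors deposited raw whole-number read counts per gene in 6 libraries, 3 KO and 3 WT, at 17248918 to 21872027 counts each. The submitters' processing notes name HISAT2 2.0.5, featureCounts 1.5.0-p3 and GRCm38. Strandedness and the handling of multi-mapping reads remain not given in the sources used here.

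Tests ran under R 4.3.3 using edgeR 4.0.16, limma 3.58.1 and DESeq2 1.42.0. Genes were kept by filterByExpr (16237), scaled by TMM and tested, KO over WT, by the quasi-likelihood test of edgeR, with p-values adjusted over all of them by the Benjamini-Hochberg method and called at 0.05. Each SE is the absolute log2 fold change divided by the square root of F. Log2 CPM used a prior count of 2, and RPKM the union exon length of GENCODE release M21, which matched 54495 of 54532 identifiers. Figures were drawn with matplotlib 3.10.9.

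The members and lists were chosen with earlier results of these data known. Genes named were the members, the other GBP and IRG genes, a fixed pathway panel, the called genes and the 6 nearest by profile; genes called by DESeq2, Ifnb1, Ifna4 and Tyk2 were named after their values were seen. A panel gene is not reported here. Alternatives used other scalings, filters and tests, a replicate block, an adipocyte covariate and libraries left out. No 2 libraries agreed within sampling noise (chi-square per degree of freedom 25.6 to 81).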

Additional observations from a re-analysis of the deposited data

How the results depend on the processing

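Each of the 10 members kept a log2 fold change below 0 in all alternatives run. With the adipocyte covariate Gbp7 (-0.02, SE 0.20) and Gbp2 (-0.05, SE 0.30) lay within their errors of 0. The alternatives reuse the libraries from which the members were chosen, so the constant sign is a description only. The members' median lay between -0.72 (without KO replicate 3) and -0.41 (without KO replicate 2) with 1 library left out, and between -0.70 and -0.39 in the other alternatives. Leaving out 1 library moved Gbp2, at -0.19 with all libraries, to between -0.44 (without KO replicate 3) and -0.08 (without KO replicate 2). Counts of calls depended on the test and filter, and the cause was not tested. With no filter beyond 1 count, edgeR called 644 of 29498 genes (342 higher, 302 lower). Among them were 3 members (Gm4951, Ifi47 and Irgm1), 5 other IRGs, 3 other large GTPases, 1 ligand, 5 transcription factors, 2 inhibitors, 7 interferon gamma targets and 1 partner. DESeq2 called 454 of 14962 genes (169 higher, 285 lower). Among them were 3 members, 4 other IRGs, 3 other large GTPases, 1 ligand, 4 transcription factors, 1 inhibitor, 7 interferon gamma targets and 1 partner. A mean count of at least 10, limma-voom, the replicate block and the adipocyte covariate gave 0 called genes in place of 2. With 1 library left out the calls ranged from 0 (without KO replicate 1 or WT replicate 1) to 155 (without WT replicate 3), with 1 without WT replicate 2. The members called stayed at 0 in each, the other IRGs ranged from 0 to 2, the other large GTPases from 0 to 2, and the ligands and the inhibitors from 0 to 1. Under the replicate block the members' median was -0.50. Same-numbered KO and WT libraries had correlated deviations of -0.10, -0.06 and -0.12, and no library correlated best with its own number. With 3 libraries per group this gives no sign of pairing by number and cannot exclude it. Ifng, with 23 to 54 counts in a library, is limited by depth.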
